A study of Homo sapiens with 6 samples.

Results

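DAZL, CTCFL, STK31, BRDT, TEX14, TEX15, TEX19, HSPA2, PRAME and RBM46 are autosomal genes of germ cells, several of them also known as cancer-testis genes. They were taken by symbol, through their Ensembl identifiers, and all 10 were found among the 16715 distinct identifiers of the table. The RNA was sequenced from HCT116, an established human line of colorectal carcinoma, at passages 7 to 10, in 3 control libraries and 3 libraries of cells given 5aza at 5 µM for 48 hours and then fresh medium for another 48 hours. Azanucleosides are built into DNA in place of cytidine and bind DNA methyltransferases there, which lowers methylation over cell divisions, and the comparison asks which transcripts differ after this treatment. The columns of the treated libraries carry the code DAC, the titles say 5aza, and 5aza is used here. No genotype or transgene is given for either group, and the control libraries are labelled only as control. Nothing in the labels says that the libraries of a group came from separate cultures, so p-values measure only the spread between these libraries.

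In the embryo, germ cells erase most of their DNA methylation, and a set of genes that run meiosis, translation of stored mRNA and transposon silencing is switched on. In somatic cells many of these genes have CpG-rich promoters that are methylated and silent, with E2F6 and the PRC1.6 complex as further repressors of some. Cancer-testis genes are germ cell genes that some tumours also express. DAZL binds mRNAs of germ cells and controls their translation. BRDT is the testis member of the BET bromodomain family and reads acetylated histones in meiotic cells and spermatids. RBM46 is an RNA-binding protein needed for meiosis, and CTCFL, also called BORIS, is the testis paralog of the insulator protein CTCF.

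For the genes whose results are described first, and for 2 genes already expressed in control cells, a promoter window is shown to set the CpG content of silent and expressed genes side by side. Windows are 300 bases long, 250 before and 50 after a RefSeq transcription start (GRCh38.p14), written 5′ to 3′ in the direction of transcription, with each CpG in capitals. Of the 10 genes, 7 had a window in use, with 14 windows in all, and none is shown for TEX14, TEX15, TEX19 or STK31. Where a gene had several windows, the one with the most CpGs was taken, with a further one for DAZL. The windows are DAZL at chr3:16605374-16605673 (minus strand) and chr3:16604741-16605040 (minus strand), BRDT at chr1:91949151-91949450 (plus strand), RBM46 at chr4:154781255-154781554 (plus strand), CTCFL at chr20:57524648-57524947 (minus strand), HSPA2 at chr14:64540491-64540790 (plus strand) and PRAME at chr22:22559216-22559515 (minus strand).
DAZL, upstream start: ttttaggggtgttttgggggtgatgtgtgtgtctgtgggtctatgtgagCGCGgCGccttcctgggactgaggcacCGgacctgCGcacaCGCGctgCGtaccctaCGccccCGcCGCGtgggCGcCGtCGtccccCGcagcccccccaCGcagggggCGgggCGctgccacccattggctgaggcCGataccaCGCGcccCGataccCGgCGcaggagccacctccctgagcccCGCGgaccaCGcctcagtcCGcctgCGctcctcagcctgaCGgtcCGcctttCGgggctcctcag
DAZL, downstream start: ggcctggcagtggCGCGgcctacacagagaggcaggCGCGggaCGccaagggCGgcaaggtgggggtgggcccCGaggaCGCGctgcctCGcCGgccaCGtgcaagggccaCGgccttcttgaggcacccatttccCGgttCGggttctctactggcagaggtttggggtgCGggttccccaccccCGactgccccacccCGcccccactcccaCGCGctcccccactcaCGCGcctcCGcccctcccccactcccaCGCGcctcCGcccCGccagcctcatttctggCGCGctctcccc
BRDT: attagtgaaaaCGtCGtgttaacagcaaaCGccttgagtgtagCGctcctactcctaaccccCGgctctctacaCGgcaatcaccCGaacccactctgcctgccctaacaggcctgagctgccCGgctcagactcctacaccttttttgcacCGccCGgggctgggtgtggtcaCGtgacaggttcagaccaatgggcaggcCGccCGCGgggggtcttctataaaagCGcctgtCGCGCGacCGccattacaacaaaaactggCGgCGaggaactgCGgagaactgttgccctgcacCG
RBM46: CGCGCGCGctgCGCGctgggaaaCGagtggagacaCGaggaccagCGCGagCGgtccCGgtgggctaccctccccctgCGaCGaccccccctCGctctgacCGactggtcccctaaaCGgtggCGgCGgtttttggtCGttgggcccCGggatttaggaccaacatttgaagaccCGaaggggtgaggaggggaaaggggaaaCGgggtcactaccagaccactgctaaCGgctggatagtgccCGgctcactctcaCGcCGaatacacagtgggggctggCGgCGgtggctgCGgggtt
CTCFL: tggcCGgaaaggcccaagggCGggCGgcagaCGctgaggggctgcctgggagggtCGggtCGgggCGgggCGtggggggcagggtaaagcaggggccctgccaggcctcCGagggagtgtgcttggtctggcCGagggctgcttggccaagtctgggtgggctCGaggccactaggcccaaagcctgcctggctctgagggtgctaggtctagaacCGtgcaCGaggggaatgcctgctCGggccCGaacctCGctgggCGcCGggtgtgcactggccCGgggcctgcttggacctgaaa
HSPA2: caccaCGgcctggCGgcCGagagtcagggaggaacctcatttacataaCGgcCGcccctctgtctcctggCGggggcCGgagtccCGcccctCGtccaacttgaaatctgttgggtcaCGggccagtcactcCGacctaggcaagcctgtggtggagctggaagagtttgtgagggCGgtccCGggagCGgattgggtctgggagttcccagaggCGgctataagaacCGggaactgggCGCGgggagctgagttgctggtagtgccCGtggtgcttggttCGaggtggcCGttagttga
PRAME: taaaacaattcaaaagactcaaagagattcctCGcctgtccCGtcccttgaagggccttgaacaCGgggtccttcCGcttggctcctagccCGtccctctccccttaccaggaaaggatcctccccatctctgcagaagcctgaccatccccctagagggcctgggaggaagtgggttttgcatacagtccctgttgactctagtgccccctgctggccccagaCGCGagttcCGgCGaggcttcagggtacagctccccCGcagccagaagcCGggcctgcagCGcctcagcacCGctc

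The windows of DAZL held 33 and 29 CpGs, more than any shown for the other genes except RBM46, which held 30. BRDT had 23, HSPA2 21, CTCFL 19 and PRAME 13, and the median over all 35116 RefSeq windows of this length was 14. That median is over windows not chosen for their CpGs. The windows not shown held 21 CpGs for BRDT, 19 for RBM46, 15 and 2 for CTCFL and 12 and 4 for PRAME. The ratio of observed to expected CpGs was 0.862 and 0.732 for DAZL, 0.873 for BRDT, 0.917 for RBM46, 0.712 for HSPA2, 0.533 for CTCFL and 0.481 for PRAME, against a median of 0.579 over all windows. DAZL, BRDT and RBM46, all near 0 in control cells, thus lay above that median, but so did HSPA2, which was expressed in control cells. CTCFL, also near 0, and PRAME, the most abundant of the 10 genes, lay below it. The motifs below were searched on both strands, and none of them overlapped another in these windows. The E-box CACGTG, the core of sites for MAX and MGA, occurred in the downstream DAZL window, 154 bases before the start, and in the BRDT window, 78 bases before it, and is held by 7.26% of all windows. The E2F6 core TCCCGC, or GCGGGA on the other strand, occurred in the downstream DAZL window, 213 bases before the start, and in that of HSPA2, 168 bases before it, and is held by 26.9% of all windows. The TATA motif TATAAA occurred in the BRDT window, and in that of STK31, and is held by 11.5% of all windows. The STK31 window, not printed, held 28 CpGs, 2 E-boxes and 2 E2F6 cores. A match describes letters in a window, and no binding or methylation was measured in these files.

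Values are FPKM, a count of fragments per length of transcript and per size of the library, so levels of different genes can be compared. The summed FPKM was 601916 to 628399 in control and 577735 to 592051 in 5aza libraries. A gene was tested with limma on log2(FPKM + 0.1) if at least 3 of the 6 libraries had 0.5 FPKM or more, and is said to have risen or fallen where the p adjusted over all 12360 genes tested was under 0.05. Of the 10 genes, 8 passed this filter. DAZL, CTCFL, BRDT and RBM46 passed it through their 5aza libraries alone, so that they had to differ. STK31 and TEX15 did not pass. Of the 8 tested, 5 rose (DAZL, BRDT, CTCFL, RBM46 and PRAME), 0 fell and 3 did not pass the test. At an unadjusted p under 0.05, limma gave 6 higher, TEX14 being added, and 0 lower. For this and the later counts at an unadjusted p, the share over all genes was not computed. At the adjusted threshold, 10.6% of all genes tested rose and 13.1% fell. The 1619 falls behind that share became 1035, 940 and 987 without control replicate 1, control replicate 2 or 5aza replicate 3. In the same fits the 1310 rises became 953, 940 and 890. Rises outnumbered falls with the trend of change on expression removed (1421 and 979) and with no variance trend (1153 and 1041). They also did so after quantile normalization (1334 and 1310), with a filter at 0.1 FPKM (1619 and 1594) and with no filter (1780 and 1461). With no filter on low values, a fit of every identifier with a value above 0 in any library, 6 of the 10 rose, STK31 being added, where 10.7% of 16627 genes did. A filter at 1 FPKM kept 4 of the 10, of which DAZL and PRAME rose, where 10.3% of genes did.

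**Figure D1:**
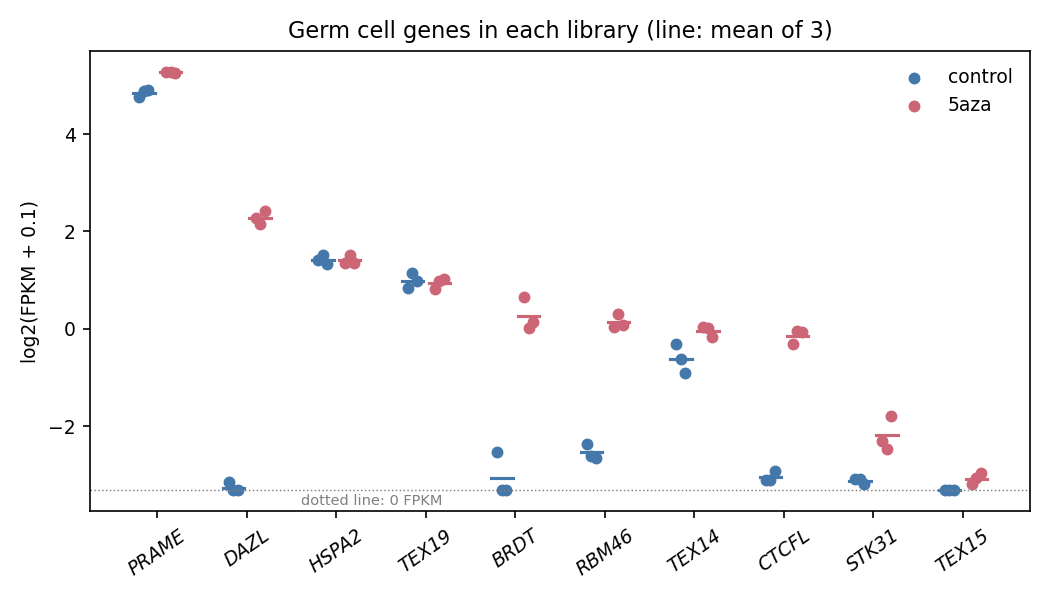
Level of each germ cell gene in every library, as log2(FPKM + 0.1), with control points to the left, 5aza points to the right and a line at the mean of 3 libraries. The dotted line marks 0 FPKM. DAZL stands between 4.33 and 5.22 FPKM in the 5aza libraries and at 0.0125 FPKM or less in the control libraries, while the points of HSPA2 and TEX19 overlap between the groups.

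DAZL (ENSG00000092345, GRCh38 chromosome 3, 16586792 to 16670306, minus strand, 3 transcripts in GENCODE release 29) was at 0.0125, 0 and 0 FPKM in control replicates 1 to 3 and at 4.77, 4.33 and 5.22 FPKM in 5aza replicates 1 to 3. Every 5aza library lay far above every control library, and the 5aza values were 348 to 418 times the 1 control value above 0. The mean after 5aza was 4.77 ± 0.441 FPKM (SD, n = 3). The fitted change was 5.55 on the log2(FPKM + 0.1) scale (SE 0.18, 95% interval 5.12 to 5.97, limma adjusted p = 2.52e-06), the fourth largest of the 12360 genes. That size depends on the value added before the log, and ran from 2.52 to 8.51 over the settings tried. The gene went from the ninth highest of the 10 in control cells to the second, above HSPA2 and TEX19, whose ranges after 5aza it did not overlap. DAZL has close relatives on the Y chromosome, the DAZ genes, which were not analysed here, and the sources used here do not give how shared reads were assigned.

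BRDT (ENSG00000137948, chromosome 1, 91949371 to 92014426, plus strand, 21 transcripts) was at 0.0718, 0 and 0 FPKM in control and at 1.46, 0.909 and 0.997 FPKM in 5aza libraries. The groups did not overlap, and 5aza replicate 1 was the highest. The mean after 5aza was 1.12 ± 0.298 FPKM, and the change was 3.33 (SE 0.33, 95% interval 2.55 to 4.10, adjusted p = 6.37e-04). The BRDT values after 5aza were 12.7 to 20.4 times that of control replicate 1, the only control library with a value.

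RBM46 (ENSG00000151962, chromosome 4, 154781213 to 154828813, plus strand, 4 transcripts) was at 0.0942, 0.0635 and 0.0592 FPKM in control and at 0.931, 1.13 and 0.956 FPKM in 5aza libraries. It thus had a low value in each control library and a narrow range in both groups, which did not overlap. The mean went from 0.0723 ± 0.0191 to 1.00 ± 0.107 FPKM (SD, n = 3), 13.9 times as high, and the change was 2.68 (SE 0.24, adjusted p = 4.01e-04), or 1.71 after quantile normalization. Its exons share 57 bases with an antisense gene, and strand is not given for the counting, so reads from that stretch cannot be assigned to either.

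CTCFL (ENSG00000124092, chromosome 20, 57495966 to 57525652, minus strand, 22 transcripts) was at 0.0156, 0.0153 and 0.0320 FPKM in control and at 0.700, 0.866 and 0.850 FPKM in 5aza libraries. Control replicate 3 was the highest of its group and still far below each 5aza library. The mean rose from 0.0210 ± 0.00957 to 0.805 ± 0.0918 FPKM (SD, n = 3), 38.4 times as high, with a change of 2.90 (SE 0.27, adjusted p = 4.42e-04), or 1.73 after quantile normalization. CTCF, the paralog present in all cells, fell in the same libraries from 28.4 ± 0.230 to 22.8 ± 1.18 FPKM (log2 change -0.32, adjusted p = 0.00296). After 5aza the CTCFL level was still a small part of that of CTCF.

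STK31, a kinase-like protein with a tudor domain that is known from spermatids, and TEX15, a regulator of transposon silencing in male germ cells, stayed under the filter. STK31 (ENSG00000196335, chromosome 7, 23710167 to 23832513, plus strand, 13 transcripts) was at 0.0176, 0.0170 and 0.00890 FPKM in control and at 0.101, 0.0802 and 0.189 FPKM in 5aza libraries. All 5aza libraries lay above all control libraries, at a mean 8.54 times as high, and the highest was 5aza replicate 3. The log2 difference of STK31 was 0.94, with an exact permutation p of 0.1 over the 6 libraries (two-sided), the smallest p that 3 against 3 allows. The fit with no filter gave it an adjusted p of 0.0213. TEX15 (ENSG00000133863, chromosome 8, 30831544 to 30913003, minus strand, 4 transcripts) was listed at 0 in each control library and at 0.00882, 0.0199 and 0.0272 FPKM after 5aza. The 2 higher values of TEX15 were 2.25 and 3.09 times the lowest, and the files do not say how many fragments that stands for. Its log2 difference was 0.24 (exact permutation p = 0.1; adjusted p = 0.231 with no filter). At these levels, and with the number of fragments unknown, no more can be read from TEX15 than that it was listed above 0 after 5aza.

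Under 0.1 FPKM in every control library were 6 of the 10 genes, DAZL, CTCFL, STK31, BRDT, TEX15 and RBM46, by a limit chosen after the values were seen. Of these 6, 4 reached 0.5 FPKM in every 5aza library, and DAZL alone reached 1 FPKM in every one. Among all 2611 annotated genes under that limit in control, 57 (2.18%) reached 0.5 FPKM and 23 (0.881%) reached 1 FPKM in every 5aza library. By mean level after 5aza, DAZL was the fourth of those 57, BRDT the 26th, RBM46 the 30th and CTCFL the 40th. The number of identifiers listed at 0 was 1663 to 1761 in the control and 755 to 801 in the 5aza libraries, and the part of this difference in the result was not tested. The files give RNA of whole cultures, so more cells with DAZL RNA and more DAZL RNA per cell cannot be told apart.

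**Figure D2:**
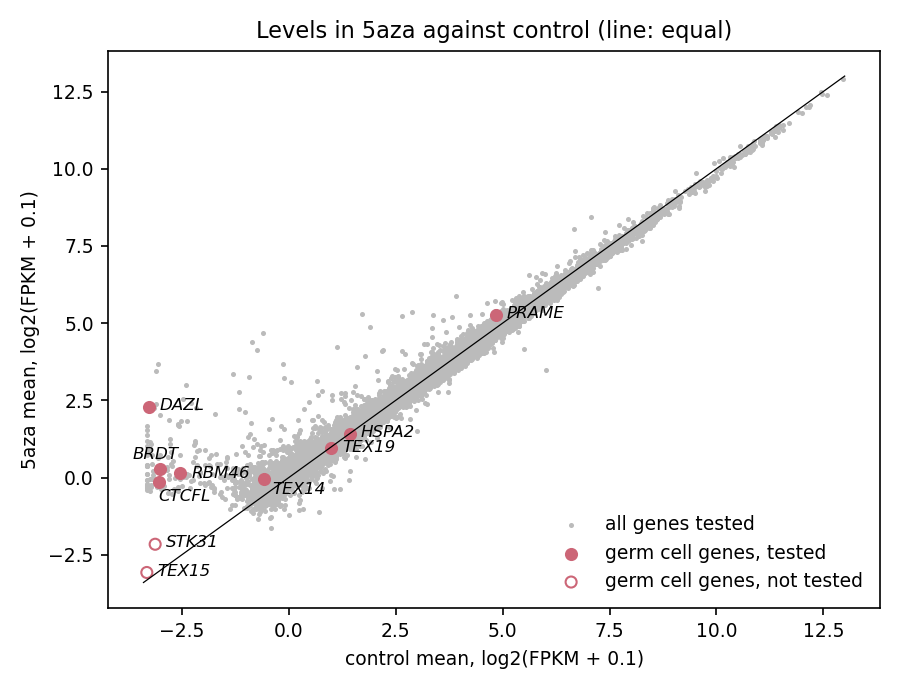
Mean level after 5aza against mean level in control, both as log2(FPKM + 0.1), for all 12360 genes tested (grey), the 8 germ cell genes tested (filled) and the 2 not tested (open). The line marks equal levels. DAZL, BRDT, RBM46 and CTCFL lie above the line at the low end of the control axis, while HSPA2 and TEX19 lie on it.

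PRAME, TEX14, TEX19 and HSPA2 were expressed in control cells. PRAME (ENSG00000185686, chromosome 22, 22547701 to 22559361, minus strand, 14 transcripts), a cancer-testis antigen that serves as a substrate receptor of cullin 2 ubiquitin ligases and is known to repress retinoic acid receptor signalling, was at 27.2, 29.3 and 29.7 FPKM in control and at 38.6, 38.8 and 37.9 FPKM in 5aza libraries. Both groups were narrow and did not overlap. The mean rose from 28.8 ± 1.33 to 38.4 ± 0.499 FPKM (SD, n = 3), 1.34 times as high, a log2 change of 0.42 (SE 0.042, adjusted p = 6.76e-04). This was the 862nd largest log2 change of the genes tested, so that PRAME, the most abundant of the 10 genes in both groups, had the smallest rise of the 5 on the log2 scale. In FPKM its difference of 9.67 was the largest of the 5, ahead of that of DAZL at 4.77.

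TEX14 (ENSG00000121101, chromosome 17, 58556678 to 58692055, minus strand, 6 transcripts), which keeps the bridges between dividing germ cells open, was at 0.707, 0.551 and 0.432 FPKM in control and at 0.924, 0.906 and 0.784 FPKM in 5aza libraries. The groups did not overlap, but the nearest values, 0.707 in control replicate 1 and 0.784 in 5aza replicate 3, were close. The log2 change was 0.57 (SE 0.21, 95% interval 0.08 to 1.05), and the adjusted p of 0.0879 did not pass. After quantile normalization the change was 0.23 (adjusted p = 0.467). Exons of TEX14 share 169 bases with an antisense gene and 80 bases with another gene on its own strand, and neither is in the table.

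TEX19 (ENSG00000182459, chromosome 17, 82359247 to 82363776, plus strand, 1 transcript), which takes part in the control of retrotransposons in germ cells and placenta, was at 1.69, 2.10 and 1.88 FPKM in control and at 1.67, 1.87 and 1.92 FPKM in 5aza libraries. HSPA2 (ENSG00000126803, chromosome 14, 64535905 to 64546173, plus strand, 3 transcripts), an HSP70 chaperone of spermatocytes that other tissues also make, was at 2.56, 2.75 and 2.42 FPKM in control and at 2.46, 2.76 and 2.46 FPKM in 5aza libraries. The groups overlapped in both genes. For TEX19 the log2 change was -0.05 (95% interval -0.34 to 0.24, adjusted p = 0.813), and for HSPA2 it was -0.01 (95% interval -0.24 to 0.22, adjusted p = 0.955). A p that misses the threshold does not show equal levels, and these intervals leave room for changes up to their bounds. TEX19 exons share 848 bases with a gene on the opposite strand that is not in the table.

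**Figure D3:**
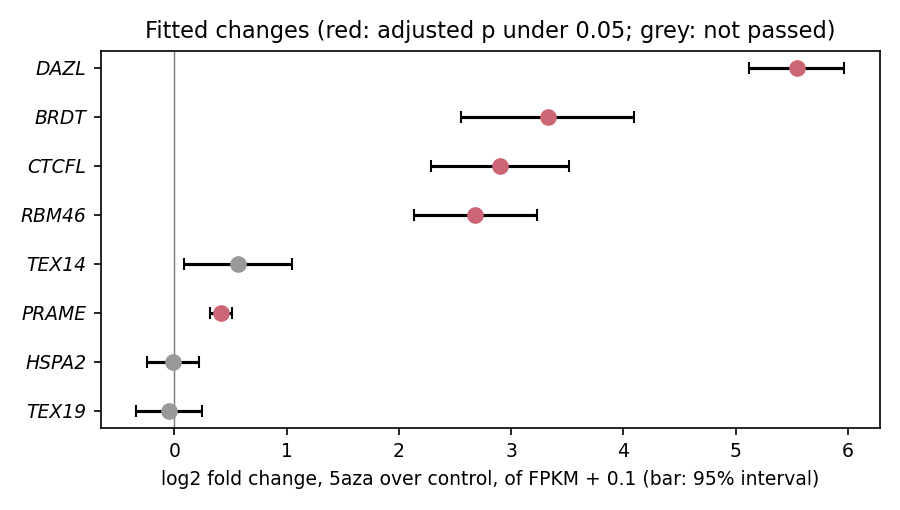
Log2 fold change of FPKM + 0.1, 5aza over control, for the 8 germ cell genes tested, with 95% intervals (limma, 3 libraries a group). Red points passed at an adjusted p under 0.05 and grey points did not. The intervals of DAZL, BRDT, CTCFL and RBM46 lie above 2, that of PRAME runs from 0.32 to 0.52, and those of HSPA2 and TEX19 span 0.

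In control cells the order of the levels was PRAME, HSPA2, TEX19, TEX14, RBM46, BRDT, CTCFL, STK31, DAZL and TEX15. From RBM46 downwards, the ranges of neighbours in this order overlapped, so these ranks are not separated. After 5aza the order was PRAME, DAZL, HSPA2, TEX19, BRDT, RBM46, TEX14, CTCFL, STK31 and TEX15, with overlapping ranges for BRDT and RBM46 and for TEX14 and CTCFL. In 8 of the 10 genes, all but TEX19 and HSPA2, every 5aza library was above every control library, which was the case for 21.9% of annotated genes with a value above 0 in any library.

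The genes whose pattern over the 6 libraries was nearest to that of DAZL, by Euclidean distance of log2(FPKM + 0.1) among annotated genes tested, were RFPL4B, COL14A1, HCLS1, ZFP42 and COX8C. RFPL4B, at a distance of 0.315, was at 0.0189, 0 and 0.0193 FPKM in control and at 4.75, 4.59 and 4.71 FPKM after 5aza, almost the same levels as DAZL. COL14A1, a fibril-associated collagen, followed at a distance of 0.951, HCLS1, an actin regulator of blood cells, at 1.13 and ZFP42, a zinc finger protein of pluripotent cells also made in testis, at 1.45. COX8C, a testis isoform of a cytochrome oxidase subunit, was at 1.59 and was listed at 0 in each control library. These 5 genes lie on chromosomes 6, 8, 3, 4 and 14. HCLS1 and DAZL thus share chromosome 3. The distance mostly reflects the levels in the 2 groups and says nothing of shared control.

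The nearest gene of the table on each side of the 10 gave 20 neighbours, from 518 bases (RAD51C) to 741 kb (PALS2) away. Of these, 13 were tested, and 0 rose and 0 fell at a limma adjusted p under 0.05, where 10.6% and 13.1% of all genes tested did. So few genes cannot show that neighbours changed less often than other genes. At an unadjusted p under 0.05, 4 were higher and 0 lower, and the share of all genes at that threshold was not computed. The neighbours of DAZL were RFTN1, 72.8 kb away, with means of 2.78 FPKM in control and 3.47 FPKM after 5aza (adjusted p = 0.0978), and PLCL2, 132 kb away, with 2.19 and 2.53 FPKM (adjusted p = 0.282). EPHX4, 15.6 kb from BRDT, had 3.85 and 4.12 FPKM, and LRAT, 28.1 kb from RBM46, had 2.59 and 2.73 FPKM. PCK1, 35.4 kb from CTCFL, was listed at 0 in each control library and above 0 in 1 library after 5aza. RAD51C, 518 bases from TEX14, had 70.3 and 64.2 FPKM (adjusted p = 0.189). ZNF280A, 27.4 kb from PRAME, had 3.73 and 4.98 FPKM (adjusted p = 0.0689). Whether DAZL differed from its neighbours by a test of that difference was not computed.

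**Figure D4:**
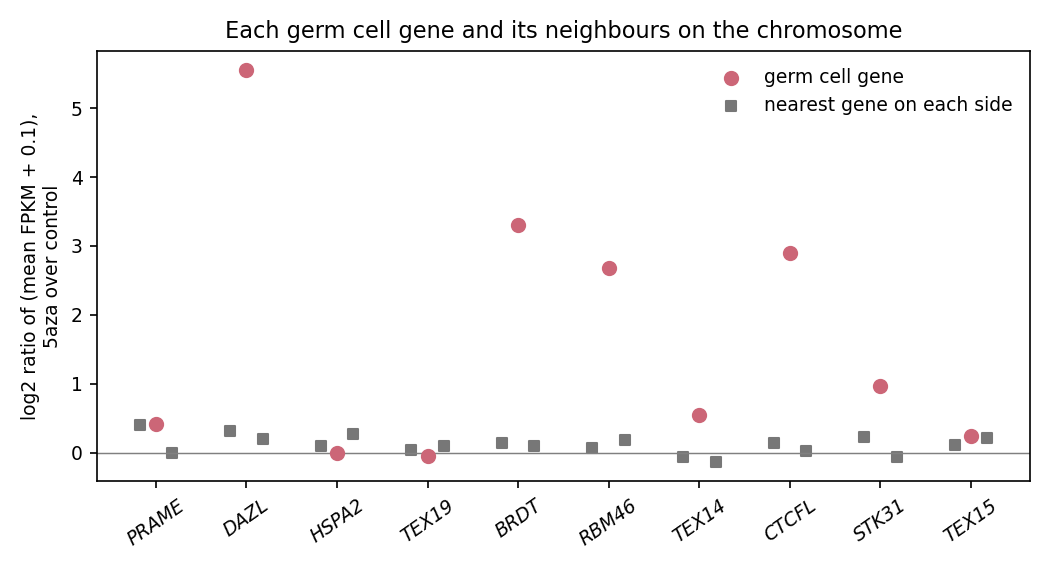
Log2 ratio of mean FPKM + 0.1, 5aza over control, for each germ cell gene (circles) and the nearest gene of the table on each side (squares). DAZL, at 5.55, stands far above its neighbours RFTN1 and PLCL2. None of the 13 neighbours tested passed the test, where 10.6% of all genes tested rose and 13.1% fell.

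Genes that work with the 10 in germ cells were read from lists, without the 10 genes themselves. Over all genes tested 10.6% rose and 13.1% fell, and the median log2 change was -0.01. With no filter, 10.7% rose and 8.79% fell. Of 21 regulators of germ cell RNA and germ cell specification in the table, 11 were tested: TFAP2C, a transcription factor of primordial germ cells, rose from 4.27 to 5.31 FPKM, DAZAP1 and DAZAP2, named as partners of DAZ proteins but present in many tissues, fell from 108 to 87.8 FPKM and from 244 to 219 FPKM, and 8 did not pass (median -0.03). With no filter 4 of the 21 rose, among them DDX4, the germ cell RNA helicase VASA, with means of 0.00629 and 0.198 FPKM (adjusted p = 0.00260), and RNF17, listed at 0 in each control library and at a mean of 0.188 FPKM after 5aza (adjusted p = 0.00304). DDX4 and RNF17 were picked after their values were seen, and even after 5aza both stayed far below DAZL. Of 13 germ cell transcription factor genes, 8 were tested: 2 rose, 1 fell and 5 did not pass (median -0.06). ZFP42 rose from 0.0789 to 5.79 FPKM and SOHLH1, a factor of spermatogonia and oocytes, from 0.0197 to 1.07 FPKM. Both passed the filter through their 5aza libraries alone, so that they had to differ. TCFL5 fell from 20.1 to 16.6 FPKM. STRA8, the gatekeeper of meiosis, was listed at 0 in each control library and at 0.642, 0.495 and 0.343 FPKM in 5aza replicates 1 to 3. It did not pass the filter (limma adjusted p = 6.03e-04 with no filter) and was picked after its values were seen.

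Germline genes known to be held silent by promoter methylation in somatic cells numbered 24 outside the 10. Of these, 18 were under 0.1 FPKM in every control library and 3 of the 18 reached 0.5 FPKM in every 5aza library. Of the 24, 6 were tested, 5 of them through the 5aza libraries alone, and 5 rose, the largest being TUBA3D, a tubulin of the testis whose reads may be shared with its copies TUBA3C and TUBA3E, from 0.0648 to 3.13 FPKM and SYCP3, of the synaptonemal complex, from 0.0453 to 2.25 FPKM. GTSF1, the only one of the 6 that did not rise, was not silent in control cells. Its means were 202 FPKM in control and 182 FPKM after 5aza (limma adjusted p = 0.0620). With no filter, 16 of the 24 rose and 0 fell, against 10.7% and 8.79% of all genes. Of 37 autosomal cancer-testis genes in the table outside the 10, 19 were tested, and 2 rose and 6 fell (median -0.13). Over all genes tested, 10.6% rose and 13.1% fell. With no filter 6 of the 37 rose and 6 fell, where 10.7% and 8.79% of all genes did. CABYR, of the sperm tail, rose from 0.0649 to 0.713 FPKM. It passed the filter through its 5aza libraries alone, so that it had to differ. SSX2IP and TTK, which dividing cells also use, fell from 25.7 to 20.8 and from 29.5 to 23.9 FPKM. Spermatid and sperm genes gave 4 tested of 21 in the table, with 0 risen and 0 fallen by limma, 1 lower at an unadjusted p under 0.05, and 1 risen with no filter. Of 19 other genes with the TEX name, a name for testis expression and not for a family, 7 were tested, 1 rose (TEX37, 0.0492 to 0.598 FPKM) and 0 fell. TEX37, too, passed the filter through its 5aza libraries alone.

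Of the paralogs of the 10 genes, 22 were in the table and 18 were tested: 2 rose, 2 fell and 14 did not pass (median -0.02). Beside these counts, and those of the TEX14 and PRAME partners below, 10.6% of all genes tested rose and 13.1% fell. Among HSP70 relatives of HSPA2, HSPA4L rose from 11.7 to 14.4 FPKM and HSPA5 from 242 to 258 FPKM, HSPA8 fell from 787 to 735 FPKM (adjusted p = 0.0541 with no filter, which does not pass), and HSPA4 (122 and 124 FPKM) and HSPA9 (191 and 181 FPKM) did not pass. BRD2, the BET relative of BRDT with the highest level, had 91.7 and 90.6 FPKM (adjusted p = 0.830). The intercellular bridge and abscission genes that work with TEX14 or its partner CEP55 gave 6 falls in 10 tested and 0 rises (median -0.25). AURKB fell from 79.2 to 57.4 FPKM, PLK1 from 94.4 to 76.0, RACGAP1 from 66.8 to 56.0 and ANLN from 59.3 to 50.3 FPKM, while CHMP4B (68.7 and 69.6 FPKM) did not pass. These are also genes of ordinary cell division. Of 8 partners of PRAME tested, 2 fell, EZH2 from 32.9 to 27.0 FPKM and RBX1 from 52.9 to 46.0 FPKM, and 6 did not pass, among them the elongins ELOB (219 and 218 FPKM) and ELOC (115 and 119 FPKM) and NFYC, a subunit of the factor NF-Y (32.1 and 28.8 FPKM).

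Some of the repressors known for germ cell genes fell, where 13.1% of all genes tested fell and 10.6% rose. Of 13 genes of E2F6 and PRC1.6, 4 fell and 0 rose (median -0.08): L3MBTL2 from 16.0 to 14.1 FPKM, HDAC2 from 180 to 161, TFDP1 from 110 to 98.9 and CBX3 from 317 to 292 FPKM. The fall of CBX3 did not pass with no filter (adjusted p = 0.0574). HDAC1 (172 and 159 FPKM) and WDR5 (48.2 and 45.7 FPKM) did not pass. Of 18 genes of DNA methylation and H3K9 silencing, 6 fell and 1 rose (median 0.0027). HELLS fell from 35.3 to 25.9 FPKM, DNMT1 from 64.0 ± 10.4 to 47.6 ± 1.35 FPKM, TRIM28 from 434 to 373 FPKM and UHRF1 from 76.1 to 66.9 FPKM. PPHLN1 (42.8 and 45.2 FPKM) did not pass. MORC2 rose from 10.8 to 13.5 FPKM, but not with no filter on low values (adjusted p = 0.0542). These are RNA levels, and the part of these changes in the levels of DAZL and the others was not tested.

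**Figure D5:**
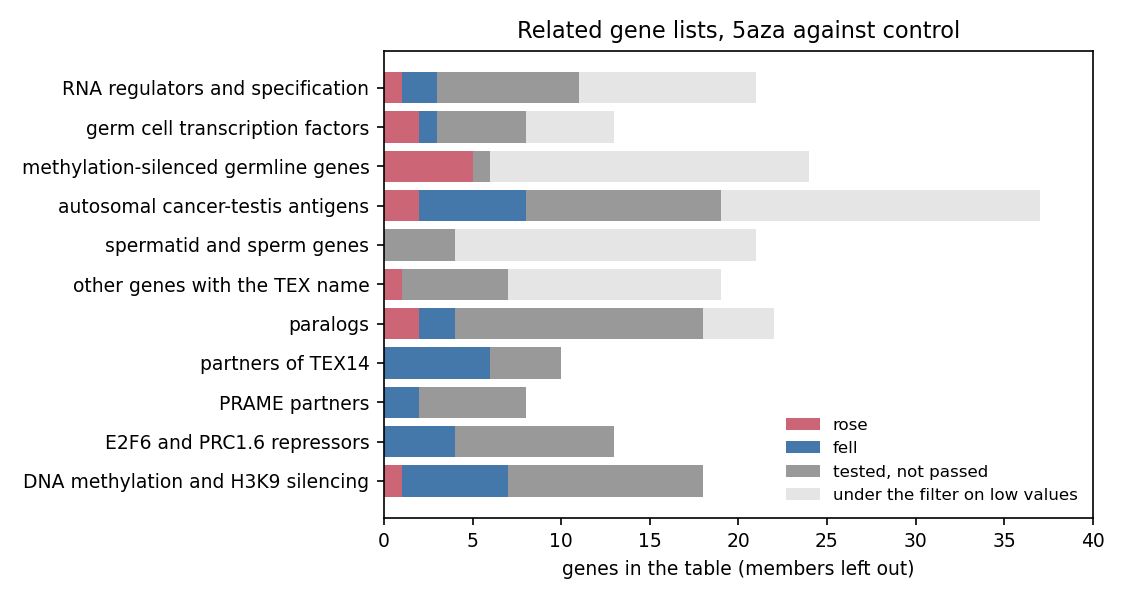
Number of genes in each related list, without the 10 germ cell genes themselves, that rose (red), fell (blue), were tested and did not pass (dark grey) or stayed under the filter on low values (light grey). Falls without rises stand in the lists of TEX14 partners (6), PRAME partners (2) and E2F6 and PRC1.6 repressors (4). Over all genes tested, 13.1% fell and 10.6% rose. Most genes of the spermatid list stayed under the filter.

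The labelled cell type was checked by its markers. Of 12 colorectal epithelium markers, all in the table, 10 had a mean of 1 FPKM or more, and their sum was 2588 to 2745 FPKM in control and 3081 to 3159 FPKM in 5aza libraries. The keratins KRT8, KRT19 and KRT18 made up most of that sum, while EPCAM (166 and 153 FPKM), CLDN7 (139 and 131 FPKM) and CLDN3 (18.4 and 14.4 FPKM) had lower means after 5aza. CDX1 was listed at 0 in each control library and had a mean of 0.288 FPKM after 5aza. VIL1 was also low, at 0.0531 and 0.124 FPKM. The 7 markers of Sertoli and Leydig cells, the somatic cells of the testis, summed to 9.76 to 12.5 FPKM in control and 8.96 to 12.3 FPKM in 5aza libraries, mostly AMH (10.1 and 8.59 FPKM) and DMRT1 (1.01 and 1.38 FPKM), with WT1 and GATA4 listed at 0 in control cells and HSD3B2 in all 6 libraries. The 9 leukocyte markers, none with a mean of 1 FPKM, summed to 0.448 to 0.525 FPKM in control and 1.31 to 1.72 FPKM in 5aza libraries. LYZ (0.155 and 0.399 FPKM) and CSF1R (0.058 and 0.299 FPKM) had the highest means over the 6 libraries, and CD2 and CD3D were listed at 0 in control cells. The 6 endothelial markers summed to 0.416 to 0.554 and 0.694 to 0.846 FPKM, and the 7 fibroblast markers to 31.4 to 31.7 and 31.6 to 33.6 FPKM. The fibroblast sum was mostly PDGFRA (26.7 and 25.7 FPKM) and COL1A1 (4.67 and 6.71 FPKM), with COL1A2 and LUM listed at 0 in control cells. The part of the higher leukocyte and endothelial sums in the result for the germ cell genes was not tested.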

How the data were processed

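The authors deposited 1 table of FPKM per gene for the 6 libraries, per the file headers; columns were matched to samples through the sample descriptions. Named in the submitters' processing notes, without their roles, are the builds GRCh38 and Rnor_6.0 and the tools DESeq2 1.10.1, HTSeq 0.6.0 and STAR 2.5.1b. The program that made the FPKM values, the number of fragments and the strand setting are unknown from the sources used here, so values at 0 have no limit. Of 16726 rows, 11 identifiers occurred more than once, and of these the higher row by mean was used. All 15440 genes found in GENCODE release 29 are autosomal.

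Values were used as log2(FPKM + 0.1), a scale that understates changes of low genes, with limma 3.58.1 in R 4.3.3 (lmFit, eBayes with a variance trend, two-sided, Benjamini-Hochberg over 12360 genes), tested on simulated data. Genes under the filter had an exact permutation test. The 10 genes, the lists and the tests were chosen with earlier results of these data known. Named from each list were up to 3 rises and 2 falls of the largest size, for lists of paralogs, partners and repressors also the 5 highest levels, and the 5 genes nearest to DAZL. Alternatives changed the added value, the filter, the normalization, the variance model and the replicates used. Replicate numbers were not taken to pair the libraries.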

Additional observations from a re-analysis of the deposited data

How the results depend on the processing

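DAZL, BRDT, CTCFL, RBM46 and PRAME kept their rise in every alternative in which they were tested, and TEX14 its miss (adjusted p 0.0607 to 0.467). In every fit with a filter, the first 4 of these genes entered through their 5aza libraries alone, so that they had to differ. BRDT, CTCFL and RBM46 were not tested with the filter at 1 FPKM. The log2 changes of DAZL, BRDT, CTCFL, RBM46 and PRAME ran over 2.52 to 8.51, 1.04 to 5.78, 0.82 to 4.75, 0.90 to 3.64 and 0.38 to 0.46. The ends of the first 4 ranges come from 1 and 0.01 added before the log, and quantile normalization gave 4.52, 2.30, 1.73, 1.71 and 0.45, and 0.23 for TEX14. With a filter at 1 FPKM, 4 of the 10 genes were left and 2 rose (DAZL and PRAME), where 10.3% of genes did. Leaving out 1 library left 5 rises each time, with the filter still taken over all 6 libraries. It also left 4 of 6 silent genes at 0.5 FPKM, a count that could only stay or grow with fewer libraries to meet the limits. That last count was 1 at 1 FPKM and 2 with controls under 0.05 FPKM, both chosen after seeing the data. STK31 was 0.94 with no filter (adjusted p = 0.0213), 0.15 with 1 added and 2.38 with 0.01 added, and TEX15 was 0.027 and 1.46 with these. With 1 library left out, TEX19 ran from -0.12 to 0.028 and HSPA2 from -0.063 to 0.035, so both changed sign. TEX19 was above 0 without control replicate 2 (0.028) or 5aza replicate 1 (0.0099), and HSPA2 without control replicate 2 (0.035), 5aza replicate 1 (0.015) or 5aza replicate 3 (0.017). Of 158 alternative values for 12 results, 145 were counted as the same. A tested gene had to keep its direction and its call. STK31 and TEX15 had to keep their direction, lie within their pooled SD and not pass with no filter. Their values with 1 or 0.01 added kept direction but lay outside that SD. Counts had to lie within 1.5 times (6 in place of 5 rises with no filter). Same-numbered libraries deviated together at r of 0.048, 0.077 and 0.068, each library highest with its own number, which is only a hint; with the replicate block 5 of the 10 genes rose, and 1259 genes rose and 1673 fell. The depth of the libraries is unknown, so counting error at values near 0 cannot be given.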
